A study of Oryza sativa with 2 samples.

Results

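Cytochrome P450 genes with leaf expression in rice are described here. They were taken from the deposited gene table by their annotation, as rows described as P450 or carrying a CYP symbol. Rows whose symbol or description names cyclophilin, CYP74, cinnamate or kaurene were left out. Of the 76131 rows of the table, 285 met this annotation, and the 116 of them with a mean of at least 1 FPKM over both libraries (40.7%) are the members. FPKM counts fragments per 1000000 mapped ones and per kilobase of the transcript, so levels can be compared between genes of unequal length. The members were therefore selected on their level in these same libraries, which makes their presence in leaf a condition of the choice and not a result.

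Both libraries came from leaves of 2-week-old seedlings of the rice cultivar Ilmi, grown in a greenhouse at 3 plants per pot after 4 days of germination on Murashige and Skoog medium at 28 °C, without stress treatment. One library was made from nontransgenic plants (NT) and the other from plants labelled PGD1:Roc10, which carry Roc10, a homeodomain-leucine zipper transcription factor gene, under a promoter that the labels call active in the whole body. How many plants or transgenic lines each library represents is not stated in the labels. With 1 library per group there is no replicate check and no test between the groups, and the level of Roc10 itself was not analysed here, so the label of the transgenic library is unchecked.

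Cytochrome P450 enzymes are heme-containing monooxygenases, most of them anchored in the endoplasmic reticulum, that insert oxygen into their substrates with electrons passed on by NADPH-cytochrome P450 reductase and, in part, by cytochrome b5. In plants they form one of the largest enzyme families. They make and inactivate hormones such as brassinosteroids, gibberellins and abscisic acid (ABA), and take part in the synthesis of sterols, lignin precursors, flavonoids, cuticle and suberin lipids and defence compounds.

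There were 27683296 mapped pairs of reads in NT and 21866514 in PGD1:Roc10. Leaf markers were abundant in both: 14 of 20 rows for the small subunit of Rubisco or for chlorophyll a/b-binding proteins passed 1 FPKM, with a sum of 40314 FPKM in NT and 38535 FPKM in PGD1:Roc10. None of 12 pollen allergen rows passed, and 11 of them were listed at 0 in both libraries. Of 9 rows on the root marker list 4 passed, all of them similar to nicotianamine aminotransferase, with a sum over the list of 73.5 FPKM in NT and 58.9 FPKM in PGD1:Roc10, while the RCc3 rows were at or near 0.

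The summed level of the P450 members was almost equal in the libraries, at 1977 FPKM in NT and 1985 FPKM in PGD1:Roc10. These sums made up 0.231% and 0.238% of the FPKM of all measured rows, which are the 21679 rows with a mean of at least 1 FPKM after a class of short RNA rows was set aside. This near equality depended on a few genes with large differences, in both directions. Without OS09G0441400, described as similar to elicitor-inducible cytochrome P450, the sum was 1956 FPKM in NT and 1846 FPKM in PGD1:Roc10. The ratio was then 0.944, against 0.977 for all measured rows. This gene was left out for its large difference, and the measured rows were not trimmed in the same way. In the other direction, 4 neighbouring members on chromosome 3 summed to 161 FPKM in NT and 109 FPKM in PGD1:Roc10. In bulk leaf RNA, fewer cells of a type and less RNA per cell cannot be told apart.

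Differences of single genes are given on the log2(FPKM + 1) scale, as PGD1:Roc10 minus NT, a scale that understates the difference of genes with low values. On it, 3 of the 116 members (2.59%) had values at least 2-fold higher in PGD1:Roc10, against 2.08% of all measured rows. Another 2 members (1.72%) were at least 2-fold lower, against 1.02% of all measured rows. Both shares rest on few genes and lie near the background, and 111 members stayed within 2-fold. By the plain ratio of FPKM values, 7 of the 116 members were 2-fold higher against 3.33% of measured rows, and 6 were 2-fold lower against 2.08%. Both are larger shares than among the measured rows, and both rest on few genes. Of the 8 members that only the plain ratio counted, 7 had a mean below 5 FPKM.

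**Figure D1:**
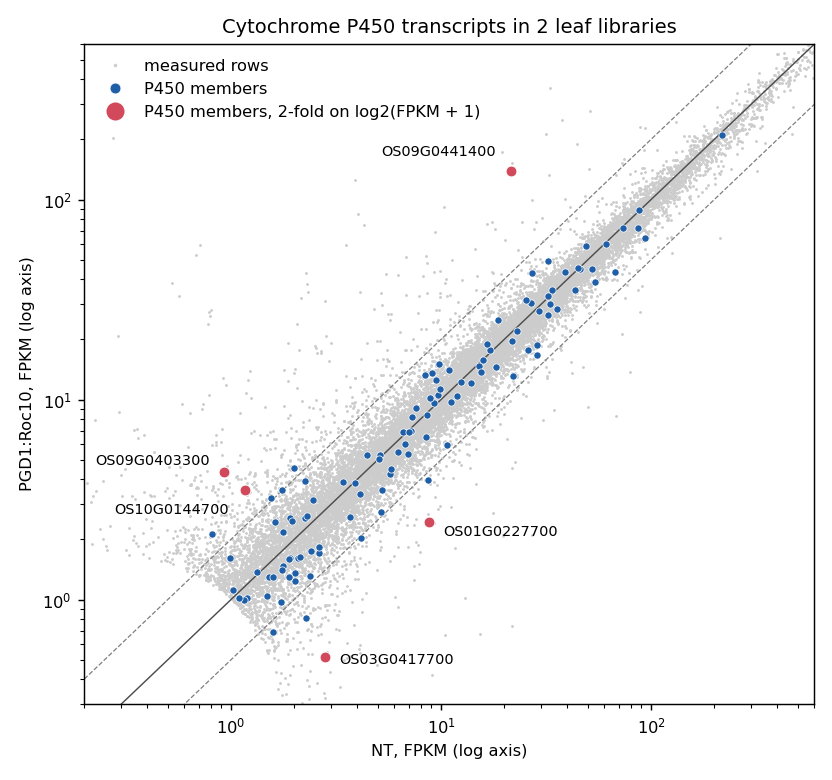
Level of each measured row in NT (horizontal axis) and in PGD1:Roc10 (vertical axis), in FPKM on log axes, 1 point per row and 1 library per group. P450 members are blue, the 5 that were 2-fold on log2(FPKM + 1) are red, the solid line marks equal values and the dashed lines a plain 2-fold ratio. Most members lie close to the line of equal values, and OS09G0441400 stands far above it at a high level.

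Above the limit of 1 FPKM, more members had the lower than the higher value in PGD1:Roc10. PGD1:Roc10 had the higher value in 46 of the 116 members (39.7%) and the lower in 70, against 48.8% higher among all measured rows. Without the limit the numbers were nearly even: of all 285 annotated rows 100 had the higher value, 105 the lower and 80 were listed at 0 in both. The higher share was then 35.1%, against 40.1% of the 37645 rows without the limit, short RNA rows set aside. The median difference was -0.051 for the members and -0.0057 for all measured rows, and the median absolute difference was 0.24 and 0.15. Members were less abundant than measured rows in general, with a median of 7.25 FPKM in NT and 6.26 FPKM in PGD1:Roc10 against 11.4 and 11.6 FPKM.

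Within bands of level the absolute difference remained above that of all rows. Among the 49 members with a mean of 1 to 5 FPKM the median absolute difference was 0.31, against 0.22 for measured rows in that band. It was 0.17 against 0.15 for the 36 members from 5 to 20 FPKM, and 0.25 against 0.12 for the 31 members at 20 FPKM or more. PGD1:Roc10 had the higher value in 19 of the 49, 15 of the 36 and 12 of the 31 members. The higher share of all measured rows in each band is not set beside these numbers, so no lean within a band is read from them. Whether these distances exceed the variation between plants was not tested, since neither group has a second library.

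**Figure D2:**
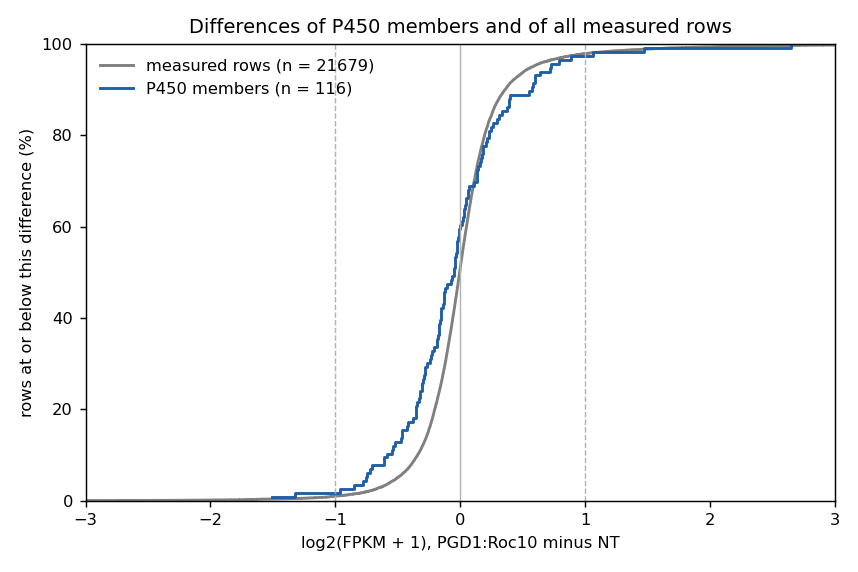
Cumulative share of rows (vertical axis, percent) at or below each difference in log2(FPKM + 1), PGD1:Roc10 minus NT (horizontal axis), for the 116 P450 members in blue and the 21679 measured rows in grey. Dashed lines mark a 2-fold difference, and the blue curve runs above the grey one left of 0 because 70 of the 116 members had the lower value in PGD1:Roc10.

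The selection at 1 FPKM left out 169 rows with P450 annotation. Of these, 80 were listed at 0 in both libraries, 9 at 0 in NT alone, 15 at 0 in PGD1:Roc10 alone, and 65 were above 0 in both. PGD1:Roc10 had the higher value in 54 of these rows and the lower in 35. The share over all rows below 1 FPKM is not set beside these numbers, so no lean is read from them. Differences of these 169 ran from -0.65 to 0.91, so that 0 of them reached 2-fold on this scale. The members just inside the limit were CYP734A2, with a mean of 1.05 FPKM, OS03G0760500 with 1.06 FPKM and OS02G0184900 with 1.08 FPKM. Just outside it lay OS02G0503700 with 0.960 FPKM, OS01G0544200 with 0.934 FPKM and OS01G0728300 with 0.907 FPKM.

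The largest difference of any member belonged to OS09G0441400 (chromosome 9, 16387839 to 16390388 on IRGSP-1.0). It stood at 21.4 FPKM in NT and 139.7 FPKM in PGD1:Roc10, a plain ratio of 6.52 and a difference of 2.65. This placed it at rank 71 of the 21679 measured rows, and made it the third most abundant member by mean level. Its place by mean level rests on the value in PGD1:Roc10. An elicitor is a molecule that sets off plant defence responses, and the description rests on similarity to a gene named for its induction by one. In the authors' deposited table its p-value was 5e-05 and its q-value 0.0111, and it was the only member called significant there (0.862%, against 0.572% of all measured rows). It shares its locus with no other measured row.

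Of the other P450 rows within 50 kb of OS09G0441400, 1 had a value above 0. OS09G0441100, similar to CYP92A1, and OS09G0441600 and OS09G0441625, similar to flavonoid monooxygenase, were listed at 0 in both libraries. OS09G0441700, also similar to flavonoid monooxygenase, stood at 2.66 FPKM in NT and 4.14 FPKM in PGD1:Roc10. It too had the higher value in PGD1:Roc10, with a difference of 0.49, and since an exact 0 can be a failed estimate, nothing is read from the other rows.

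The other 2 members with 2-fold higher values were scarce in NT, and the table gives neither a numbered family nor a role for them. OS09G0403300 (chromosome 9, 14194228 to 14196610) stood at 0.925 FPKM in NT and 4.34 FPKM in PGD1:Roc10, a difference of 1.47. OS10G0144700 (chromosome 10, 2709162 to 2711992) stood at 1.16 FPKM and 3.52 FPKM, a difference of 1.06. Their p-values in the authors' deposited table were 0.0169 and 0.0215, and the q-values 0.854 and 0.999.

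Among the lower members, OS01G0227700 (chromosome 1, 7061376 to 7065249), described only as of the P450 family, stood at 8.77 FPKM in NT and 2.44 FPKM in PGD1:Roc10, a difference of -1.51. Its neighbours differed far less: OS01G0227400, similar to CYP71A1, stood at 15.2 and 14.7 FPKM, and OS01G0227500 at 26.9 and 30.4 FPKM. OS03G0417700 (chromosome 3, 17340416 to 17342284) stood at 2.81 FPKM in NT and 0.518 FPKM in PGD1:Roc10, a difference of -1.33. It is described as similar to "Phytochrome P450", a wording kept as the table has it. It overlaps OS03G0417750, a hypothetical protein gene at 1.08 FPKM in NT and listed at 0 in PGD1:Roc10, and how reads of the pair were divided was not tested. The p-values of OS01G0227700 and OS03G0417700 in the authors' deposited table were 0.00465 and 0.0450, with q-values of 0.375 and 0.999.

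Before adjustment, 8 members (6.90%) had a p-value of at most 0.05 in the authors' deposited table, against 3.11% of all measured rows. Besides the 5 genes above these were OS07G0635300, at 2.00 FPKM in NT and 4.55 FPKM in PGD1:Roc10, OS11G0635500, at 27.2 and 42.9 FPKM, and OS07G0644600, at 28.7 and 18.8 FPKM. These p-values come from 1 library per group and carry no information on the spread between plants.

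The 10 most abundant members held 41.0% of the P450 FPKM in NT and 43.1% in PGD1:Roc10, and PGD1:Roc10 had the higher value in 3 of them. OS10G0525000 led in both libraries, at 217 FPKM in NT and 211 FPKM in PGD1:Roc10, and shares its locus with OS10G0525101, a hypothetical gene at 190 and 175 FPKM. OS08G0465700 stood at 87.7 and 89.1 FPKM, and OS09G0530300, which shares its locus with another measured row, at 61.3 and 60.2 FPKM. These 3 lay within 1.2-fold between the libraries, as did 53 of the 116 members.

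Another 4 of the most abundant members had lower values in PGD1:Roc10. OS09G0528700, similar to CYP78A9, stood at 93.9 FPKM in NT and 64.2 FPKM in PGD1:Roc10. OS03G0371350 stood at 67.3 and 43.6 FPKM, OS11G0489250 at 86.7 and 71.8 FPKM, and OS10G0515200 at 52.1 and 44.9 FPKM. The remaining places of the 10, which were ranked by mean level, went to OS09G0441400, through its value in PGD1:Roc10, and to a pair of reductases.

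The annotation also took in 3 NADPH-cytochrome P450 reductases, which are flavoproteins that supply P450 enzymes with electrons and are not P450 enzymes themselves, so that 113 members are P450 genes in the strict sense. OS08G0243500 stood at 73.7 FPKM in NT and 72.3 FPKM in PGD1:Roc10, OS04G0653400 at 49.2 and 58.6 FPKM, and OS09G0558900 at 9.70 and 10.6 FPKM. Cytochrome b5, the second electron donor, is outside the set. Of 13 rows with cytochrome b5 in the description, which may include proteins other than cytochrome b5 itself, 12 were measured. PGD1:Roc10 had the higher value in 8 and the lower in 4, and none was 2-fold, with a median difference of 0.12 against -0.0057 for all measured rows. The most abundant, OS02G0793700, stood at 522 and 498 FPKM, and OS02G0649800 had the largest difference, at 13.3 FPKM in NT and 21.4 FPKM in PGD1:Roc10.

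Symbols or descriptions placed 28 members in lists by role, the reductases included, and 88 had no stated role. No member with a stated role differed 2-fold on log2(FPKM + 1), and all 5 members with a 2-fold difference were among the 88. Of all measured rows, 2.08% were 2-fold higher and 1.02% were 2-fold lower. At such shares a list of 28 can easily hold none, so no contrast between the 28 and the 88 is read from this. Among the 88, 39 had the higher and 49 the lower value in PGD1:Roc10, and 48.8% of all measured rows had the higher.

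Brassinosteroids are growth-promoting steroid hormones, and P450 enzymes catalyse most steps of their synthesis as well as their inactivation. Of 10 rows on this list 8 were members, 2 with the higher and 6 with the lower value in PGD1:Roc10, with a median difference of -0.16. Among the synthesis genes above 1 FPKM, OS11G0143200, similar to CYP90A1, gave the largest difference, -0.47, at 1.73 FPKM in NT and 0.973 FPKM in PGD1:Roc10. A second gene similar to CYP90A1, OS12G0139300, was the most abundant of the list and differed the other way, at 8.81 and 10.1 FPKM. CYP85A1, which oxidises the last intermediates of the pathway, stood at 2.02 and 1.36 FPKM, and CYP724B1, an early side-chain enzyme, at 4.11 and 3.38 FPKM. OS05G0200400, similar to CYP90D10, stood at 1.76 and 2.18 FPKM.

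The inactivating enzymes of the CYP734A group were scarce in leaf in both libraries. CYP734A2 stood at 1.09 FPKM in NT and 1.02 FPKM in PGD1:Roc10, and CYP734A4 at 1.58 and 1.29 FPKM. Both differences are smaller than 0.22, the median absolute difference of measured rows from 1 to 5 FPKM. CYP90D2 lay below the limit, at 0.771 FPKM in NT and 0.180 FPKM in PGD1:Roc10, a difference of -0.59, larger than that of any member of the list, while OS07G0136800, described as similar to it, stood at 1.88 and 1.59 FPKM. The loci of CYP85A1 and CYP724B1 overlap other measured rows.

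CYP707A enzymes hydroxylate ABA, the drought hormone, and so begin its breakdown. Both measured members were close to equal: CYP707A6 stood at 21.7 FPKM in NT and 19.7 FPKM in PGD1:Roc10, and CYP707A7 at 23.1 and 21.9 FPKM. Their loci also overlap other measured rows. CYP707A5 lay below the limit, at 0.587 and 0.874 FPKM.

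CYP714 enzymes oxidise gibberellins, hormones of stem growth. CYP714B2 was the only member of 5 listed rows, at 13.9 FPKM in NT and 12.1 FPKM in PGD1:Roc10, and CYP714B1, CYP714C1, CYP714C2 and CYP714D1 were below 1 FPKM in both libraries. An ent-kaurene oxidase of the early gibberellin pathway, OS06G0570100, is outside the set by its annotation and stood at 25.0 and 18.3 FPKM. In sterol synthesis, OS11G0525200, a CYP51 similar to obtusifoliol demethylase and the only member of 4 listed rows, stood at 43.5 FPKM in NT and 35.4 FPKM in PGD1:Roc10, a difference of -0.29.

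Phenylpropanoid and flavonoid enzymes hydroxylate the precursors of lignin and of flavonoids. Of 7 rows 6 were members, 2 with the higher and 4 with the lower value, with a median difference of -0.011. The CYP98A enzymes, which hydroxylate coumaroyl esters on the way to lignin, had nearly equal values: OS10G0196000, similar to CYP98A7, stood at 5.04 FPKM in both libraries, and OS05G0494000, similar to CYP98A1, at 12.5 FPKM in NT and 12.2 FPKM in PGD1:Roc10. CYP93G2 (OS06G0102100), the flavanone hydroxylase of flavone glycoside synthesis in rice, stood at 16.6 and 18.9 FPKM, and OS10G0320100, similar to CYP75B2, a flavonoid hydroxylase of the B ring, at 1.95 and 2.46 FPKM.

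The exception within this list was a neighbouring pair of flavonoid hydroxylases on chromosome 3. OS03G0367200, similar to CYP75A2, stood at 5.15 FPKM in NT and 2.73 FPKM in PGD1:Roc10, a difference of -0.72, and OS03G0367101 at 5.24 and 3.53 FPKM, a difference of -0.46. The first overlaps OS03G0367150, which had the opposite direction at 8.30 and 9.78 FPKM, and how reads were divided between the overlapping rows was not tested. The 3 rows described as cinnamate hydroxylases, outside the set, were below 1 FPKM in both libraries. An enzyme of this reaction that is described only as a P450 would stand among the members without a stated role, so the level of this step is not read from these rows.

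Enzymes of fatty acid hydroxylation and the CYP78 family, listed together, had the lowest median difference of the role lists with more than 1 member, -0.35, with 1 higher and 5 lower value among 6 members of 11 rows. Their summed level was 133 FPKM in NT and 91.9 FPKM in PGD1:Roc10. OS10G0486100, annotated as CYP86B1, a hydroxylase known in Arabidopsis for suberin lipids, stood at 8.68 and 3.95 FPKM, a plain ratio of 2.19 lower and a difference of -0.97. It shares its locus with OS10G0486000, at 26.9 and 28.5 FPKM.

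The CYP78A enzymes, known in Arabidopsis as regulators of organ growth, contributed most of the summed difference. OS09G0528700, similar to CYP78A9, was named above, and OS08G0547300, similar to CYP78A1, stood at 10.7 FPKM in NT and 5.91 FPKM in PGD1:Roc10. The hypothetical gene OS08G0547350 at the same locus was far more abundant and also lower in PGD1:Roc10, at 119 and 64.3 FPKM. How reads were divided between these overlapping rows was not tested, so their shared direction is not independent support. OS03G0134500, annotated as CYP78A9, differed the other way, at 1.91 and 2.56 FPKM. It shares its locus with OS03G0134550, which had the lower value in PGD1:Roc10, at 4.20 and 2.73 FPKM, and how reads were divided was not tested. OS03G0140200, similar to CYP86A1, stood at 15.6 and 13.8 FPKM, and OS05G0382500, similar to CYP94E4, at 1.76 and 1.48 FPKM.

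Enzymes named for rice defence compounds had low values in both libraries. None of the 6 rows for enzymes of rice diterpenoid phytoalexins reached a mean of 1 FPKM: CYP99A2 was listed at 0 in both libraries, CYP99A3 stood at 0.776 FPKM in NT and 0.875 FPKM in PGD1:Roc10, and CYP71Z6 at 0.985 and 0.587 FPKM. CYP76M7 stood at 0.628 and 0.241 FPKM, CYP76M8 at 0.235 and 0.150 FPKM, and CYP71Z7 at 0.0900 and 0.111 FPKM. The gene OS04G0171800, similar to CYP79A1, which in sorghum converts tyrosine in the synthesis of a cyanogenic glucoside, stood at 3.88 and 3.84 FPKM. The lists for carotenoid, strigolactone and cytokinin enzymes matched no row by symbol or family number.

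**Figure D3:**
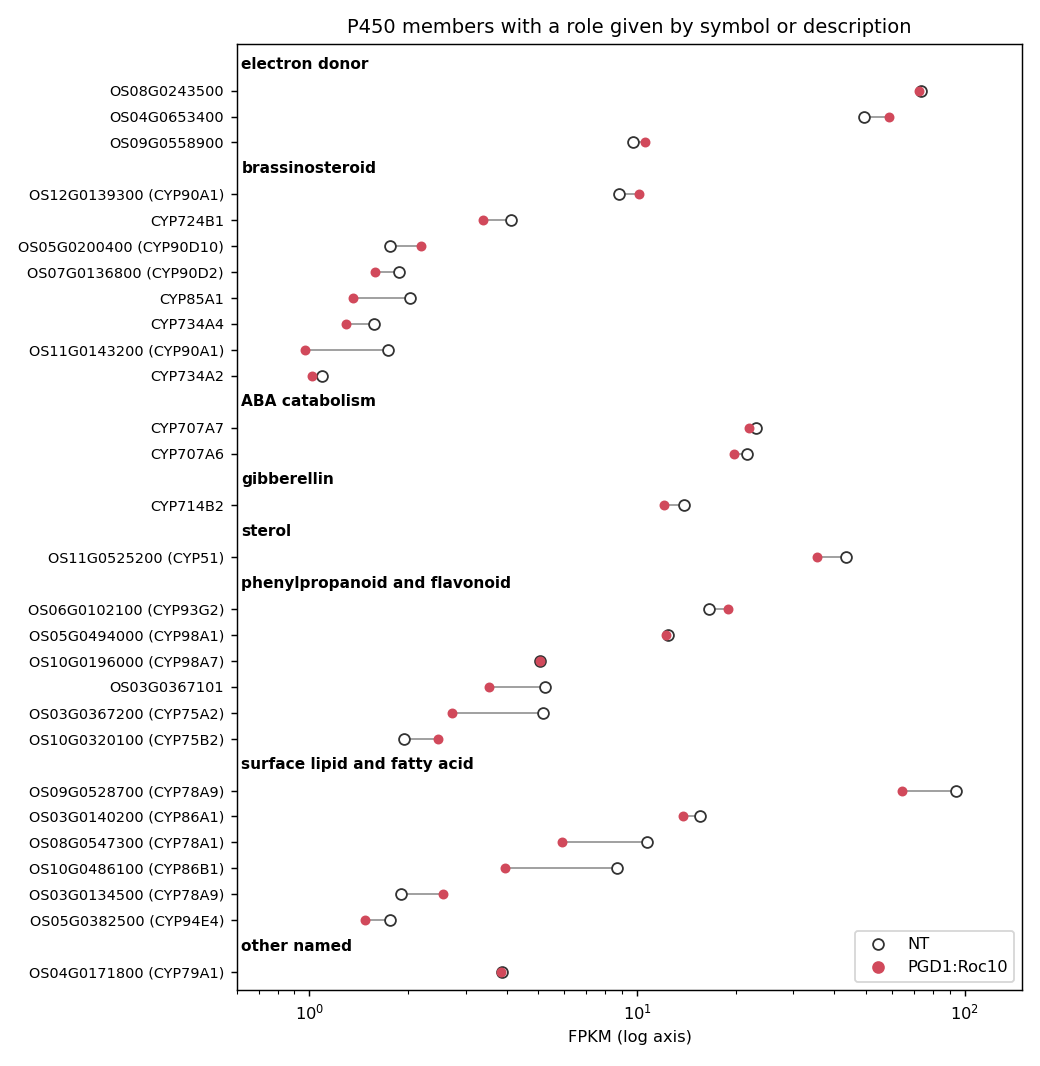
Level in FPKM (horizontal log axis) of the 28 members with a stated role, 1 row per gene grouped by role, with the CYP family of the description in brackets. Open circles are NT, filled circles PGD1:Roc10, 1 library each. Most pairs lie close together, and the widest gaps are at OS10G0486100, OS03G0367200 and OS08G0547300, each with the lower value in PGD1:Roc10.

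Plant P450 genes often lie in tandem arrays. When members no more than 50 kb apart were joined, 41 of the 116 fell into 16 groups, 11 of them pairs, and 75 stood alone. Chromosome 3 held the most members, 22, and chromosome 1 had 18. In 12 groups the members differed in both directions, in 4 every member had the lower value in PGD1:Roc10, and in none did every member have the higher. No such count was made for neighbouring measured rows in general, so no shared direction of P450 neighbours is read from these numbers. The groups described next were chosen after their values were seen.

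The group with the largest summed difference lay on chromosome 3 from 14553014 to 14573221 and had a summed level of 161 FPKM in NT and 109 FPKM in PGD1:Roc10. Its 4 members had differences from -0.74 to -0.19. OS03G0370900 stood at 11.2 and 9.72 FPKM, OS03G0371300, similar to CYP709E4, at 54.0 and 38.5 FPKM, OS03G0371350 at 67.3 and 43.6 FPKM, and OS03G0371400 at 28.7 and 16.8 FPKM. The last 3 follow each other at distances of 95 and 475 bases, and the loci of OS03G0371350 and OS03G0371400 are only 548 and 723 bases long. Whether these are separate genes or pieces of a single transcribed unit was not tested.

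Other groups were mixed. The 5 members beginning with OS01G0627400 had a summed level of 65.8 FPKM in NT and 64.3 FPKM in PGD1:Roc10, with 2 higher and 3 lower. In the group of 4 that begins with OS03G0760000, this gene stood at 2.26 and 0.810 FPKM while its abundant neighbour OS03G0760200 stood at 46.0 and 44.8 FPKM. OS07G0635300, with a difference of 0.89, and its neighbour OS07G0635700, with one of -0.33, differed in opposite directions.

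**Figure D4:**
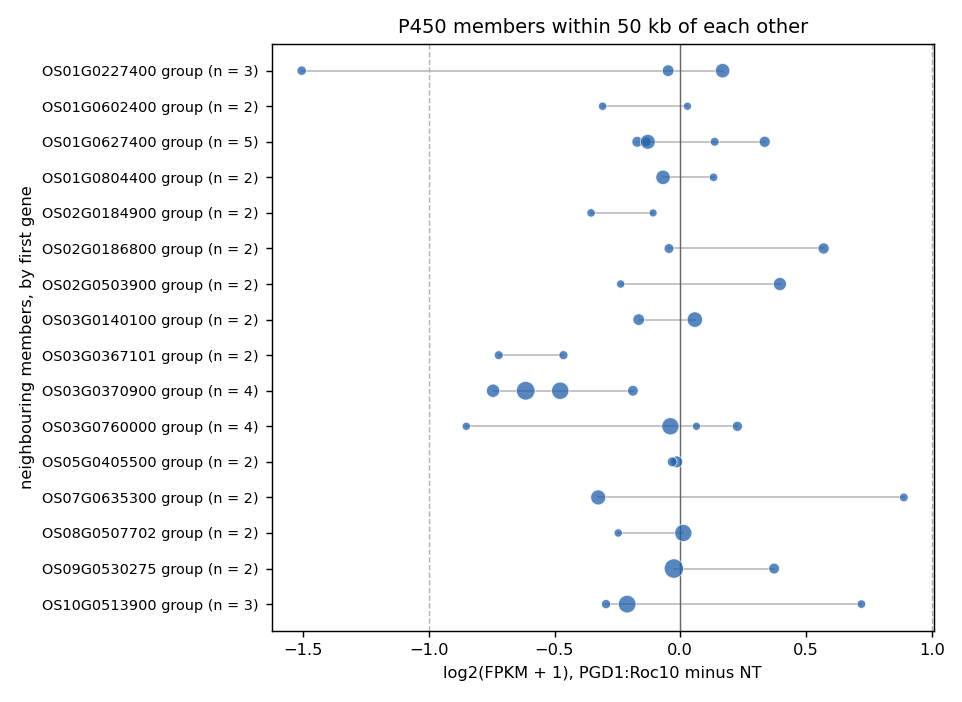
Difference in log2(FPKM + 1), PGD1:Roc10 minus NT (horizontal axis), of the 41 members within 50 kb of another, 1 line per group named by its first gene and 1 point per member, with larger points for higher mean FPKM. Dashed lines mark a 2-fold difference. In 12 of the 16 groups the points lie on both sides of 0, and all 4 points of the OS03G0370900 group lie below it.

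Families that often act on P450 products were set beside the members by their counts, against 2.08% of all measured rows 2-fold higher and 1.02% 2-fold lower. The list for UDP-glycosyltransferases, which attach sugars, took every row with UDP-gluc or UDP-glyc in its description, so other enzymes of UDP-sugars may be included. Of its 83 measured rows, 5 were 2-fold higher and 2 lower, with a median difference of -0.050. Of 189 measured genes with a transferase domain, many of them acyltransferases, 9 were 2-fold higher and 4 lower, with a median of -0.038. The 24 measured glutathione S-transferases, which conjugate reactive compounds, gave 3 that were 2-fold higher and 0 lower, with a median of 0.19, and their summed level was 725 FPKM in NT and 917 FPKM in PGD1:Roc10. The distance between these medians and the -0.051 of the P450 members was not tested.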

How the data were processed

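Leaf RNA of 1 NT and 1 PGD1:Roc10 library was sequenced from strand-specific libraries, per the labels' protocols. Reads were aligned with TopHat 2.0.12 and quantified with Cufflinks and Cuffdiff 2.2.1 on IRGSP-1.0, per the file headers, which name Ensembl Plants release 23 for the annotation. The authors deposited FPKM values per gene and, from Cuffdiff on 1 library per group, a p-value and a q-value, which were copied. The other read and pair numbers of the deposited summary were used for depth. For strand setting and library normalization the sources used here give nothing. FPKM carries no count, so depth per gene is unknown, no interval is given, and an exact 0 can be a failed estimate.

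Groups were taken from the labels. The difference is log2(FPKM + 1) in PGD1:Roc10 minus NT, with a pseudocount of 1, and plain ratios are called so. Rows with a mean of at least 1 FPKM, without the short RNA rows whose names begin EPlOSAG, are the background. No test was made. The members and lists were chosen with earlier results of these data known. Named are all members 2-fold on this scale, the 10 most abundant, those with a role by symbol or description (at most 6 per list, by absolute difference; the remaining brassinosteroid members were added after their values were seen), 3 on each side of the limit, and neighbours within 50 kb of a 2-fold member. Of the members, 30 share their locus with another measured row, so reads may have been divided. Further named genes were picked with their values in view. Coordinates are copied from the deposited loci, and whether starts count from 0 or 1 is not given. No sequence is printed. The calculations used Python 3.11.15, NumPy 2.4.6, pandas 2.3.3 and matplotlib 3.10.9 and were tested on simulated data.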

Additional observations from a re-analysis of the deposited data

How the results depend on the processing

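No paired analysis was possible because each group has 1 library, and for the same reason no replicate could be left out. Counts of 2-fold members, 3 higher and 2 lower, depended on the scale, as did the shares of all measured rows given with them. They were 6 and 6 with a pseudocount of 0.1 (3.20% and 1.95% of all measured rows), 5 and 4 with 0.5 (2.62% and 1.39%), and 1 and 0 with 5 (0.803% and 0.208%). They were 1 and 1 among 67 members averaging 5 FPKM or more (1.42% and 0.605%), 10 and 12 at 1.5-fold (4.90% and 3.65%), and 1 and 0 at 3-fold (1.001% and 0.355%). With libraries scaled to the same total over all rows, they were 2 and 3 (1.70% and 1.56%). With pseudocounts of 0.1 and 0.5 and at 1.5-fold, the shares of the 116 members lay above those of all measured rows in both directions.

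Members with the higher value in PGD1:Roc10, 46 of 116, numbered 26 with the same total over all rows (22.4%, against 21.1% of all measured rows) and 53 with the same total outside the short RNA rows (45.7%, against 54.5%). They were 62 of 137 at a mean of at least 0.5 FPKM (45.3%, against 49.3%), 27 of 67 at one of 5 FPKM (40.3%, against 47.8%) and 30 of 86 without shared loci (34.9%, against 47.9%). Without a filter 100 of 285 were higher (35.1%, against 40.1% of all rows outside the short RNA rows), 105 lower and 80 listed at 0 in both. The numbers higher and lower were then nearly even, while the higher share stayed below that of all these rows. The median difference of -0.051 became -0.061 and -0.060 with pseudocounts of 0.1 and 0.5, and -0.038 with 5. It was -0.24 with the same total over all rows, where the median of all measured rows was -0.20, and -0.026 with the same total outside the short RNA rows, where that of all measured rows was 0.02. It was -0.027 at a minimum mean of 0.5 FPKM, -0.032 at one of 5 FPKM, 0 without a filter, -0.13 without shared loci and -0.068 without reductases.

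The ratio of summed FPKM, PGD1:Roc10 over NT, was 0.867 with the same total over all rows and 1.03 with the same total outside the short RNA rows. Scaling moves the ratio of all measured rows by the same factor. That ratio was 0.977 before scaling and is not given after it, so no lower or higher P450 sum is read from the scaled values. The ratio of the members was 0.944 without OS09G0441400, a choice made with the values in view. It was 1.01 with libraries scaled on their median, with a minimum mean of 0.5 or 5 FPKM, without a filter and without shared loci. Calls in the authors' deposited table numbered 8 by the p-value before adjustment, against 1. The 5 members with a 2-fold difference stayed past 2-fold in 20 of 25 combinations of gene and setting. Their direction was kept in all 25, which is no check. A pseudocount cannot reverse a direction, and the scalings moved these differences by far less than their size. At a pseudocount of 5 only OS09G0441400 stayed past 2-fold, and its difference ranged from 2.44 to 2.70 over the settings. The cause of these shifts was not tested. FPKM without counts and a single library per group limit every value here, most of all those near 1 FPKM.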

Other observations

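Some reactions that P450 enzymes catalyse in plants are named in the table without the word P450, and rows named so lay outside the annotation used. They were chosen after their values were seen. Of 18 such rows 10 were measured, and their summed level was 224 FPKM in NT and 212 FPKM in PGD1:Roc10. Carotenoid hydroxylases, which make the xanthophylls of the light-harvesting apparatus, were well expressed: OS04G0578400, similar to a beta-ring hydroxylase, a reaction that plants carry out with both P450 and non-heme enzymes, stood at 52.7 FPKM in NT and 47.2 FPKM in PGD1:Roc10, OS10G0533500 of the same description at 25.5 and 21.1 FPKM, and OS10G0546600, similar to an epsilon-ring hydroxylase, at 15.3 and 16.8 FPKM.

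Rows similar to flavonoid monooxygenase were among the more abundant, with OS08G0547900 at 71.3 FPKM in NT and 69.2 FPKM in PGD1:Roc10 and OS02G0503100 at 44.9 and 44.3 FPKM. Of the rows similar to taxane hydroxylases, OS07G0491800 stood at 3.29 and 2.52 FPKM, and OS07G0519300 at 1.78 and 1.98 FPKM. Among the CYP74 rows, allene oxide synthase-type enzymes of the jasmonate pathway that need no reductase, CYP74A1 stood at 11.1 and 11.4 FPKM, and CYP74A3 at 1.01 FPKM in NT and was listed at 0 in PGD1:Roc10.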
